A study of Arabidopsis thaliana with 12 samples.

Results

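The genes described are 4 members of the mTERF family of Arabidopsis thaliana, AT3G46950, AT4G09620, AT5G55580 and AT1G61990, which encode mitochondrial transcription termination factor family proteins of plastids and mitochondria. They were taken as the table rows whose probe annotation names exactly 1 gene among these loci. Each had 1 such probe, so 4 of the 3439 probes of the table, and 4 of 689 loci with a probe naming 1 gene, are described. They were chosen by their family and with their fold changes between sucrose medium and water in these samples already known, so those differences are given as a description, and where genes past a threshold are counted among them nothing is read from the count. All 4 had a value above 0 in all 12 samples and passed the filter on low values.

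The mTERF proteins take their name from a human protein that ends transcription on mitochondrial DNA. They are built from repeats of a short helical motif that stack into a curved surface which binds nucleic acid. In plants the family is large, is encoded in the nucleus and is imported into plastids or mitochondria, where members take part in transcription, intron splicing and ribosome assembly on organelle RNA. Of the 4 genes, AT5G55580 is listed in RefSeq under the further name mTERF9; this protein works in chloroplasts, where it takes part in ribosome assembly and translation. No role is given here for AT4G09620, AT3G46950 or AT1G61990 beyond their membership of the family.

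RNA abundance was measured on arrays in total RNA of wild-type plants of the ecotype Wassilevskija. The plants of 6 samples received water, and those of the other 6 received 60 mM sucrose in MS (a mixture of plant nutrient salts) for 30 min. Salts and sucrose were given together, the labels give neither plant age, organ nor the duration of the water treatment, and no tissue label could be set against markers. The question is how transcripts differ between the 2 treatments.

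Each sample held 1 intensity per probe on a scale from 0 to 100, with 100 as the highest value in all 12 samples. The median intensity of a water sample was 0.171 to 0.188 and that of a sucrose medium sample 0.422 to 0.459. Deposited values were thus on average higher in sucrose medium over much of the array. How the scale was set is not stated, so a higher deposited value need not mean more RNA. For this reason each gene is given both as deposited and after quantile normalisation, which gives every array the same distribution of log2 intensities and so places a gene relative to the other probes. Samples 1 and 2, 3 and 4, and 5 and 6 of a group were closest to each other, with Spearman correlations of at least 0.957 over 2805 probes, where no other pair of a group exceeded 0.959. The labels do not say whether these sets of 2 are repeat measurements or whether samples came from separate plants, so the spread given as SD may be in part technical. In bulk RNA, fewer cells that express a gene and less RNA per cell cannot be told apart. The number of arrays limits the precision.

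AT5G55580, the chloroplast gene mTERF9, was brighter in sucrose medium as deposited but lower relative to the other probes. Its deposited intensities in water were 0.745, 0.837, 0.774, 0.816, 0.739 and 0.750 in replicates 1 to 6. In sucrose medium they were 0.948, 0.935, 1.02, 1.20, 1.06 and 0.989. Every deposited value in sucrose medium was thus above every value in water, and the ratio of the group means was 1.32. After quantile normalisation the order turned. The log2 intensity was -0.051 ± 0.076 in water and -0.37 ± 0.20 in sucrose medium (SD, n = 6 each), a log2 fold change of -0.32 ± 0.094 (SE). Sucrose replicate 4, at -0.010, lay within the range of the water samples, from -0.13 to 0.027, while its other 5 samples lay between -0.52 and -0.34. The groups therefore overlapped, although the sucrose value was lower in each of the 6 same-numbered pairs. Ranked within its array, the gene stood on average at percentile 87.0 of all probes in water and at percentile 82.4 in sucrose medium; such a place also depends on the probe, so only its change between the groups is read.

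AT4G09620 hardly differed as deposited, and of the 4 genes it had the largest decrease relative to the other probes. In water its deposited intensities were 0.922, 0.874, 1.07, 1.10, 1.24 and 1.26. In sucrose medium they were 0.976, 1.01, 1.05, 1.06, 1.04 and 1.09. These groups overlapped, and the means of 1.08 ± 0.16 and 1.04 ± 0.041 (SD, n = 6 each) differed by less than the spread of the water samples. After normalisation its log2 intensities ran from 0.074 to 0.45 in the water samples and from -0.46 to -0.27 with sucrose, with no overlap. The log2 fold change was -0.64 ± 0.085 (SE), a 1.56-fold difference, and its average place went from percentile 90.2 of the array to percentile 82.9. Much of its spread in water lay between the sets of 2. The deposited set means were 0.898 for replicates 1 and 2, 1.08 for 3 and 4 and 1.25 for 5 and 6, whereas samples of 1 set differed by at most 0.048. In sucrose medium the 3 set means, 0.993, 1.05 and 1.07, lay closer together.

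AT3G46950 had the largest difference toward sucrose medium of the 4 genes, and it was also the most variable of them. Its deposited intensities in water were 0.308, 0.339, 0.467, 0.415, 0.258 and 0.364. In sucrose medium they were 1.14, 1.09, 1.26, 1.18, 0.750 and 0.971. No sample of sucrose medium came near the water range, and the group means of 0.358 ± 0.075 and 1.06 ± 0.18 (SD, n = 6 each) gave a ratio of 2.97. After normalisation the log2 intensity was -0.97 ± 0.29 in water and -0.30 ± 0.41 in sucrose medium, a log2 fold change of 0.68 ± 0.19 (SE). The normalised groups then overlapped, because sucrose replicate 5, at -0.996, lay among the water samples, which ran from -1.42 to -0.59. Water replicate 5 was the lowest of its group too, and the sucrose value was higher in each of the 6 same-numbered pairs. In both groups replicates 3 and 4 were the highest samples and replicate 5 the lowest. The SD in sucrose medium was larger than that of 86.1% of the probes tested.

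AT1G61990 was brighter in sucrose medium as deposited, somewhat more than the median probe of the array, and differed little after normalisation. In water its deposited intensities were 0.229, 0.236, 0.301, 0.283, 0.289 and 0.311, and in sucrose medium 0.724, 0.694, 0.713, 0.700, 0.724 and 0.736. The groups lay far apart, with a ratio of means of 2.60, close to the ratio of 2.49 between the groups' average array medians. Probe by probe, its log2 fold change on unscaled values was 1.39, against a median of 1.09 over all probes tested. After normalisation it was at -1.27 ± 0.16 in water and at -1.04 ± 0.027 in sucrose medium (SD, n = 6 each), a log2 fold change of 0.23 ± 0.080 (SE) with no overlap between the groups. The gap between the groups was small. The highest water sample was replicate 3 at -1.09 and the lowest sucrose sample replicate 2 at -1.07. Ranked within its array, the gene went from percentile 65.1 on average in water to percentile 70.2 in sucrose medium. By rank the groups overlapped, as water samples reached percentile 69.58 and sucrose medium samples began at 69.56. In sucrose medium 1 of the 2915 probes tested had a smaller SD than this gene, whereas in water 28.5% had a smaller one.

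**Figure D1:**
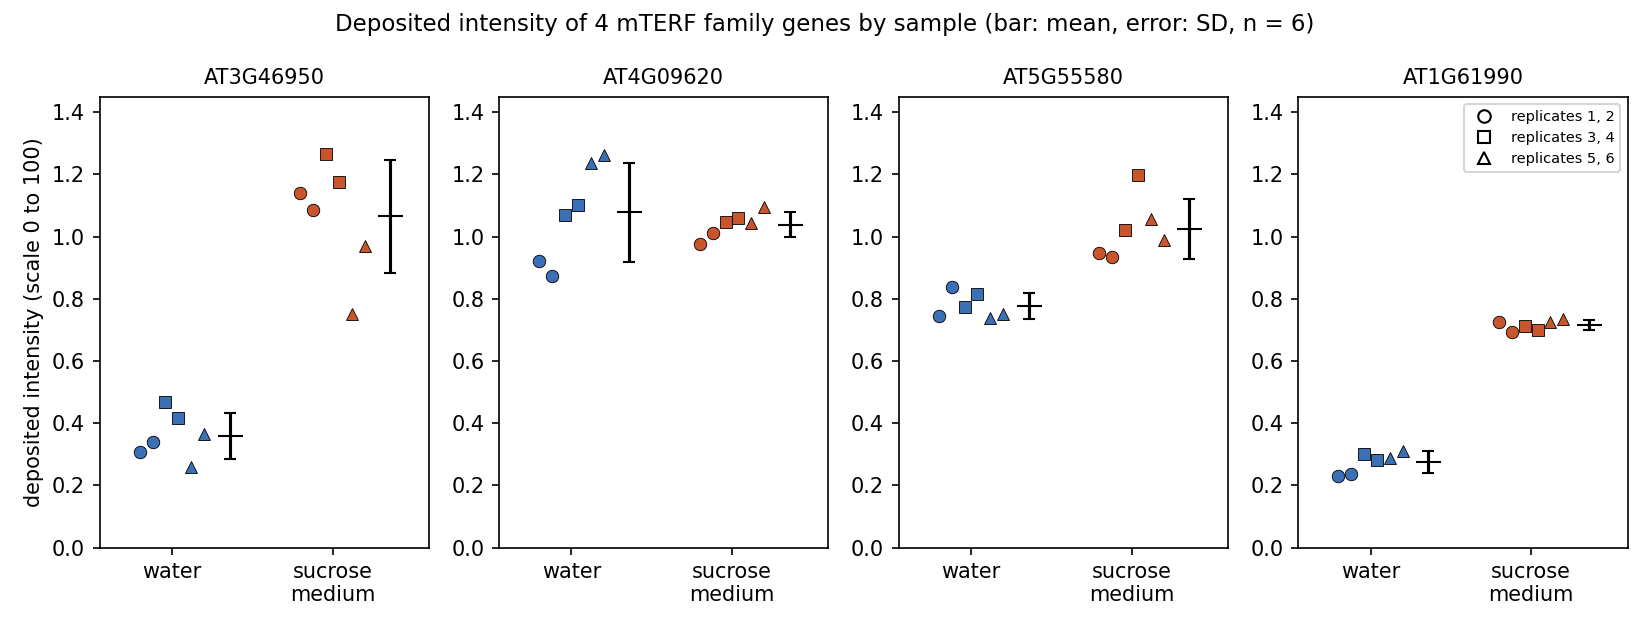
Deposited intensity (linear axis from 0, unit of the scale not stated) of the 4 mTERF genes in each water (blue) and sucrose medium (orange) sample; symbols mark replicates 1 and 2, 3 and 4, and 5 and 6, and the black bar is the mean with its SD (n = 6). AT3G46950, AT5G55580 and AT1G61990 do not overlap between the groups, with ratios of means of 2.97, 1.32 and 2.60, whereas AT4G09620 does.

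**Figure D2:**
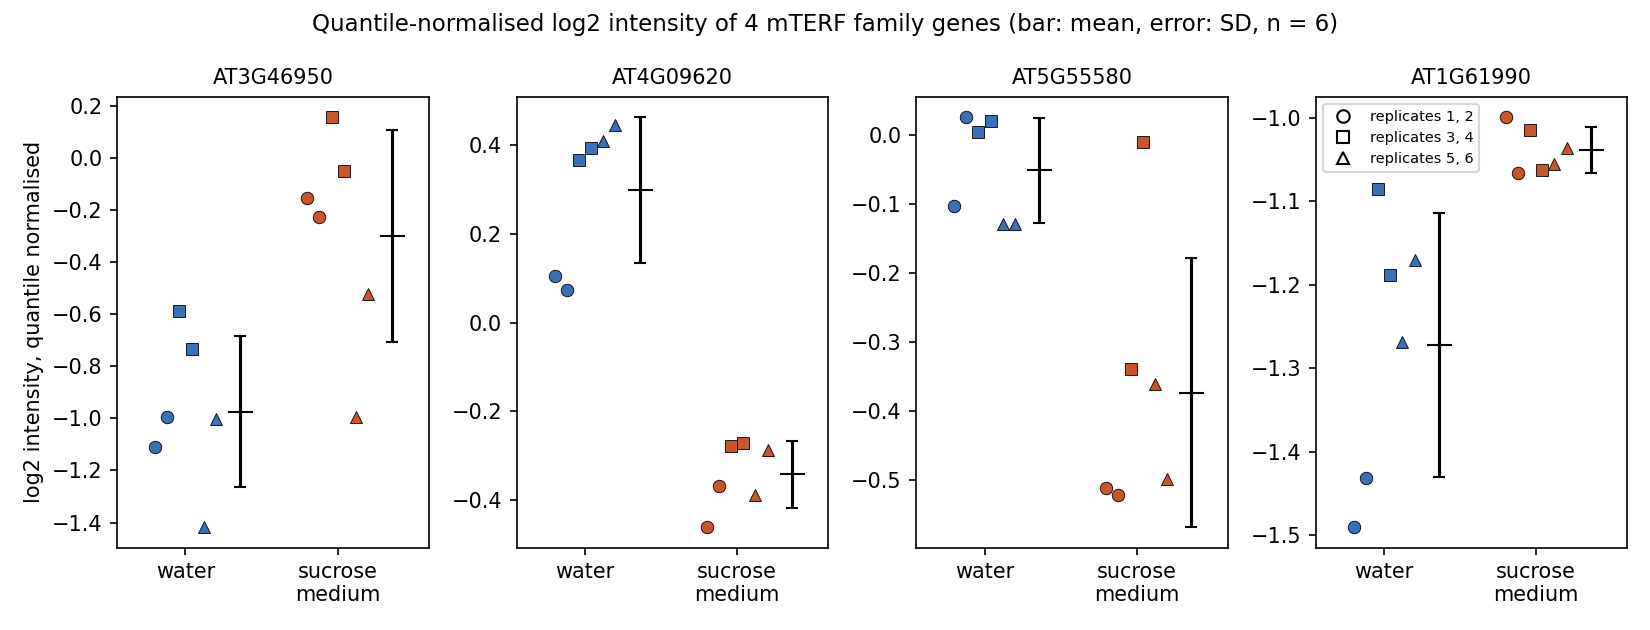
The same samples after quantile normalisation (log2 scale, a separate axis range for each gene; black bar, mean and SD, n = 6). AT4G09620 is lower and AT1G61990 higher in sucrose medium without overlap, while in AT5G55580 sucrose replicate 4, at -0.010, and in AT3G46950 sucrose replicate 5, at -0.996, reach into the range of the water samples.

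In the fit over all 2915 probes tested (limma, Benjamini-Hochberg adjusted p under 0.05), 2 of the 4 genes were past the threshold as higher in sucrose medium and 2 as lower. Of all probes tested 31.5% were past it as higher and 32.9% as lower, 64.4% together. With the sets of 2 averaged, so that each group had 3 values, 0 of the 4 were past the threshold as higher and 1 as lower, where 22.9% of all probes were past it as higher and 23.9% as lower, 46.9% together; at an unadjusted limma p under 0.05, 1 of the 4 was higher. The fit of averaged sets did not pair the sets between the groups, although samples of the same set deviated together across them. Since these fold changes were known when the genes were chosen, neither count tests them. After normalisation the groups did not overlap in 1 of the 4 genes that was higher and 1 that was lower, against 21.0% and 23.3% of all probes tested, 44.3% together. As deposited the groups did not overlap in 3 of the 4 genes, all higher, against 63.6% of all probes as higher and 4.43% as lower, 68.0% together. The median log2 fold change of the 4 genes was -0.044 and that of all probes tested -0.027. Of all probes tested, 81.2% had a lower log2 fold change than AT3G46950 and 21.1% a lower one than AT4G09620, so both lay well inside the range of the array.

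Of the 2 lower genes, AT5G55580 changed direction with the scaling of the arrays. AT4G09620 stayed below 0 in all 5 settings but varied in size, and unscaled its SE of 0.097 exceeded its difference. On unscaled log2 values AT5G55580 had a log2 fold change of 0.40 and AT4G09620 of -0.041, beside an array-wide median of 1.09. With each array centred on its median they were at -0.86 and -1.30, with cyclic loess at -0.15 and -0.43, and with a straight line that brings each array onto the mean water array at 0.29 and -0.14. AT3G46950 and AT1G61990 were above 0 in all of these settings, from 0.32 to 1.58 and from 0.13 to 1.39. Their lowest values came from median centring, with SEs of 0.18 and 0.085 (limma, adjusted p = 0.127 and 0.188). Set against the median of all probes in the same setting, each gene kept its side in all 5 scalings. Median centring shifts each array by a constant, so relative to the median it can only repeat the unscaled values and adds no separate check. The straight line left 2075 of the 2915 probes to be tested, so its median is over fewer probes. Over those 2075 probes, a comparison added after seeing the data, each gene kept its side in all 5 scalings too, with AT5G55580 at -0.72 to -0.070 and AT1G61990 at 0.093 to 0.61. Over all probes of each setting, AT3G46950 stood 0.49 to 1.13 above that median and AT1G61990 0.20 to 0.61 above it, while AT4G09620 lay between -1.13 and -0.43 and AT5G55580 between -0.69 and -0.070 relative to it. The -0.070 came from the straight line, where the SE of the fold change of AT5G55580 was 0.10, so its side there is uncertain. Over the 2075 probes, the 0.093 of AT1G61990 came from cyclic loess. The SE of its fold change there was 0.083, so that side is uncertain too.

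Brightness moved with these directions. When the probes tested were split into 4 groups of near-equal size by mean log2 intensity, AT5G55580 and AT4G09620 fell in the brightest group and AT3G46950 and AT1G61990 in the next brightest. Without scaling the median log2 fold change of the brightest group was 0.18, and that of the next was 1.21. AT5G55580, at 0.40, was thus above the median of its own brightness group and AT4G09620, at -0.041, below it; AT3G46950, at 1.58, and AT1G61990, at 1.39, were above theirs. After quantile normalisation the medians of the same groups of probes were -0.19 and 0.093. The part of brightness in the differences was not tested.

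**Figure D3:**
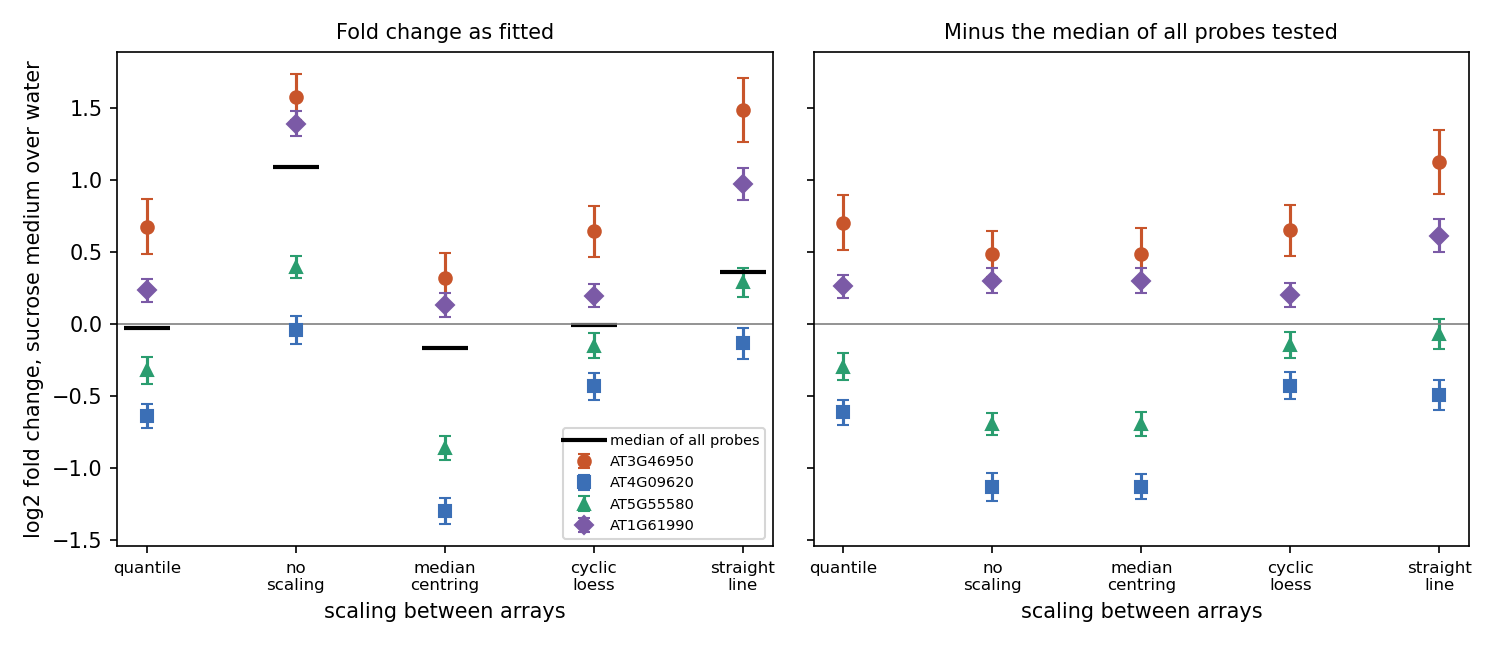
Log2 fold change (sucrose medium over water; error bars, SE) of the 4 mTERF genes under 5 scalings between arrays, as fitted (left, with the median of all probes as a black dash) and after subtracting that median (right). AT5G55580 lies at 0.40 unscaled and at 0.29 with the straight line, but the order of the 4 genes is the same in all 5 settings. No scaling and median centring cannot differ in this order or in the right panel.

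A ratio between genes of the same array does not change with any factor applied to that array, but it does change with a scaling that depends on brightness. The log2 ratio of AT3G46950 to AT4G09620, set to a mean of 0 in water, was 1.62 ± 0.29 in sucrose medium (SD, n = 6), from 1.13 to 1.87, against -0.66 to 0.41 in the water samples. The ratio of AT3G46950 to AT5G55580 was 1.18 ± 0.30 higher in sucrose medium. The ratio of AT4G09620 to AT1G61990 was at -1.43 ± 0.057 and that of AT5G55580 to AT1G61990 at -0.99 ± 0.14. In these 4 ratios, each of a higher to a lower gene or the reverse, the groups did not overlap. Each of the 4 also pairs a gene of the brightest group with one of the next, whose unscaled medians were 0.18 and 1.21. Over the 5 scalings the difference of log2 fold changes ran from 1.08 to 1.62 for AT3G46950 and AT4G09620 and from 0.80 to 1.20 for AT3G46950 and AT5G55580. It ran from -1.43 to -0.63 for AT4G09620 and AT1G61990, and from -0.99 to -0.35 for AT5G55580 and AT1G61990, with -0.56 after quantile normalisation. Within the 2 directions the ratios overlapped between groups, at 0.19 ± 0.29 for AT3G46950 to AT1G61990 and -0.44 ± 0.12 for AT4G09620 to AT5G55580. How often the groups overlap in ratios of other pairs of probes was not counted, so nothing is read from the overlaps. These ratios are descriptions of genes chosen with the directions known.

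For 3 of the 4 genes the array held a further probe that is annotated with the gene and with others, and after quantile normalisation it went the opposite way to the gene's own probe. AT5G55580 shares a probe with AT1G78930, also of the mTERF family. That probe had deposited intensities of 0.0887 to 0.135 with water and 0.432 to 0.510 with sucrose, and its log2 fold change was 0.77 ± 0.11 (SE), against -0.32 for the probe of AT5G55580 alone; the shared probe was above 0 in all 5 scalings, from 0.69 to 2.07. The log2 ratio of the own probe to the shared one changed by -1.67 ± 0.17 (SD, n = 6) on unscaled values, with no overlap between the groups. The same difference was -1.09 after quantile normalisation, -0.85 with cyclic loess and -0.42 with the straight line. Median centring cannot change it from the unscaled value. The sign of the difference thus held in all 5 scalings and its size did not. The shared probe was dimmer, on average at percentile 34.8 of the array in water and 51.6 in sucrose medium. Without scaling the median log2 fold change was 1.35 in the dimmest brightness group and 1.40 in the next. In the brightest group, which held the own probe of AT5G55580, it was 0.18. The part of brightness in this difference was not tested.

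AT3G46950 and AT1G61990 share a probe with AT1G61960 and AT1G62490, of the same family. It had a log2 fold change of -0.58 ± 0.13 (SE), against 0.68 and 0.23 for their own probes, but without scaling it was above 0 too, at 0.43, beside the array-wide median of 1.09. Its normalised log2 intensity ranged from -0.72 to -0.38 in water and from -1.64 to -0.78 in sucrose medium, so the groups did not overlap. The log2 ratio of the own probe to the shared one was 1.14 ± 0.27 higher in sucrose medium for AT3G46950 and 0.96 ± 0.26 higher for AT1G61990 on unscaled values, again without overlap, and over the 5 scalings these differences ran from 1.14 to 1.56 and from 0.72 to 1.05. AT4G09620 was on no shared probe. Which transcripts each probe detects is not given beyond these annotations, so the share of each family member in these signals is uncertain.

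The family was taken as 35 loci listed from general knowledge of it rather than from a database, and the RefSeq gene table used here names 3 of them as mTERF genes, so the counts that follow rest on that list. Of these loci, 8 had a tested probe naming 1 gene, that is the 4 genes described and AT3G18870, AT1G79220, AT1G62010 and AT1G62150. A further 11 were only on probes that name several genes, and 16 on no probe named here. Of the 8 genes, 4 were past the threshold as higher, 3 as lower, and 1 was not past it, where 31.5% of all probes were past it as higher and 32.9% as lower, with a median log2 fold change of 0.25 against -0.027 for all probes tested. With averaged sets 1 was higher and 2 lower, against 22.9% and 23.9% of all probes. Without scaling 6 were higher and 0 lower (limma; also 0 lower at an unadjusted p under 0.05), against 73.9% and 7.75% of all probes. Nothing particular to the family is read from these counts.

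AT1G79220, another mTERF family gene, had the largest increase of the 8 family genes with a tested probe naming 1 gene. Its deposited intensities ran from 0.214 to 0.392 in water, with a median of 0.241, and from 0.997 to 1.28 in sucrose medium, with a median of 1.08. After normalisation it rose 2.15-fold, with a log2 difference of 1.10 ± 0.12 (SE) and an adjusted p of 6.33e-06 by limma, and was higher in 6 of 6 pairs. It stayed past the threshold with averaged sets (limma, adjusted p = 0.00321) and was above 0 in all 5 scalings, from 0.81 to 2.07.

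AT3G18870 was, of the same 8 family genes, the one furthest below its water level after normalisation. Its deposited intensities did not separate the groups, at 0.332 to 0.391 with water and 0.342 to 0.382 with sucrose. After normalisation it was at -0.97 ± 0.10 in water and -2.11 ± 0.079 in sucrose medium (SD, n = 6 each), a log2 difference of -1.15 ± 0.072 (SE) with an adjusted p of 6.32e-08 by limma, lower in 6 of 6 pairs, and with averaged sets its adjusted p was 0.00103. Unscaled it was at 0.047, beside the array-wide median of 1.09. Its average place in the array went from percentile 72.1 to percentile 42.8.

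AT1G62010 and AT1G62150 had smaller differences. AT1G62010 had a log2 difference of 0.37 ± 0.14 (SE) with an adjusted p of 0.0315 by limma, higher in 5 of 6 pairs, but was not past the threshold with averaged sets (limma, adjusted p = 0.159). Its water samples split by set, with replicates 5 and 6 at -1.22 and -1.15 and the other 4 between -1.93 and -1.69. Leaving out 1 sample at a time, it was past the threshold in 6 of 12 fits. AT1G62150 had 0.27 ± 0.14 (limma, adjusted p = 0.101), higher in 6 of 6 pairs, and passed with replicate number as a block (limma, adjusted p = 0.0181), but not with averaged sets or with the sets as a random block (limma, adjusted p = 0.205 and 0.288). It also passed without sucrose replicate 6 (0.36; limma, adjusted p = 0.0356). With median centring it was at -0.43.

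Several of these loci are neighbours. In the RefSeq gene order of the assembly TAIR10.1, AT1G61960, AT1G61970 and AT1G61980 stand directly before AT1G61990 on chromosome 1, AT1G62010 is the 2nd protein-coding gene after it, and AT1G62085, AT1G62110, AT1G62120 and AT1G62150 follow within 15 genes. The probes with an own gene in this stretch, AT1G61990, AT1G62010 and AT1G62150, had log2 fold changes of 0.23, 0.37 and 0.27. A pair of probes that each name AT1G61970 and AT1G61980 had 0.026 ± 0.17 and 0.13 ± 0.12 (SE; limma, adjusted p = 0.901 and 0.365). A probe naming AT1G62085, AT1G62110 and AT1G56380 had 0.58 ± 0.19 (limma, adjusted p = 0.0186; 0.0720 with averaged sets). AT3G46950, AT4G09620 and AT5G55580 lie on chromosomes 3, 4 and 5.

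**Figure D4:**
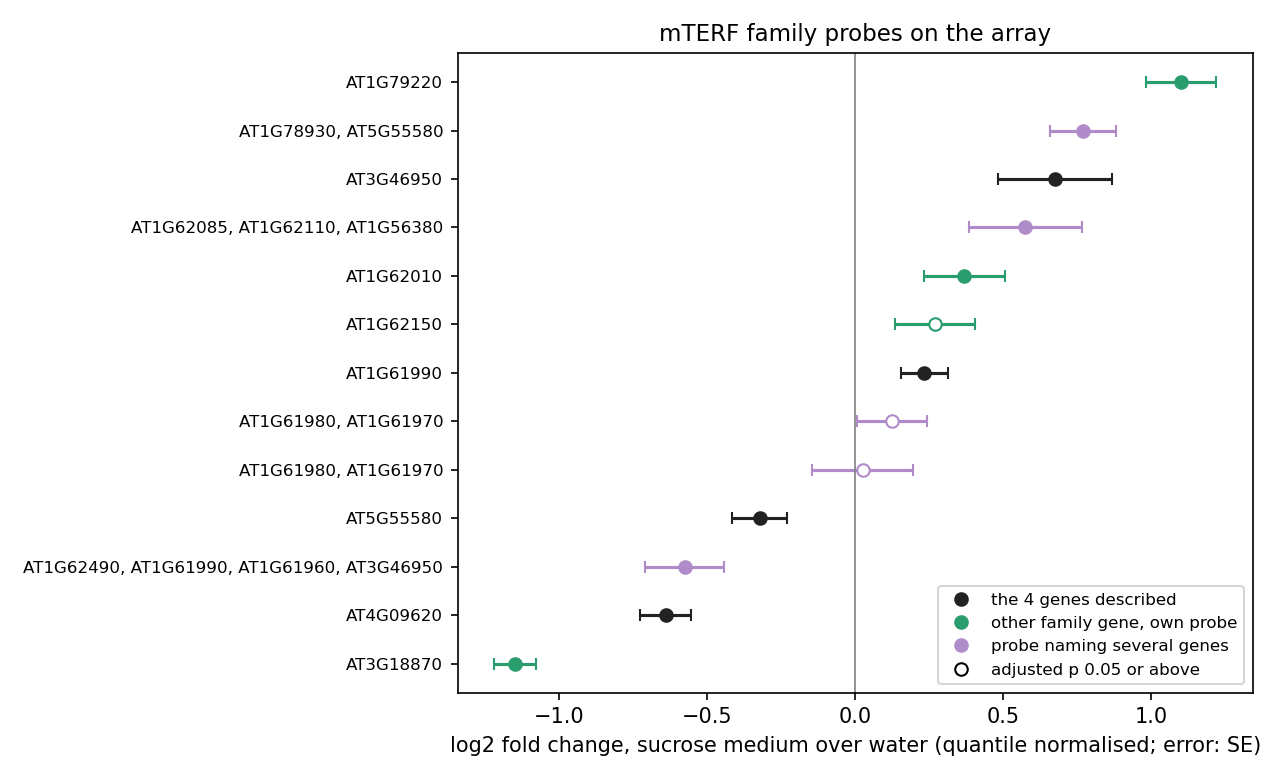
Log2 fold change (sucrose medium over water, quantile normalised; error bars, SE) of the 13 tested probes of the mTERF family, with the 4 genes described in black, other family genes with their own probe in green and probes naming several genes in purple; open symbols had an adjusted p of 0.05 or above in limma. The probes spread from -1.15 for AT3G18870 to 1.10 for AT1G79220, and the probes shared by AT5G55580 and by AT3G46950 and AT1G61990 lie on the other side of 0 from the genes' own probes; without scaling only AT4G09620, at -0.041, is below 0.

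A list of 35 other nuclear genes of organelle transcription, among them the sigma factors, the phage-type RNA polymerases and the proteins of the plastid transcription complex, had 0 members on probes naming 1 gene and 0 on probes naming several. Whether the partners of the mTERF proteins in organelle transcription differed was therefore not measured on the named probes.

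The genes most like each of the 4 were sought among 563 other single-gene probes with values in all 12 samples, by the mean absolute difference of normalised log2 profiles, each centred on its own mean. For AT3G46950 these were AT5G34870, AT2G40980 and AT4G39570, with mean differences of 0.130, 0.156 and 0.181, where the median over all candidates was 0.500. For AT4G09620 they were AT5G16230, AT4G08280 and AT4G24840, at 0.0918, 0.105 and 0.108. For AT5G55580 they were AT1G21500, AT4G20300 and AT1G18290, at 0.0437, 0.0835 and 0.0856. For AT1G61990 they were AT1G65090, AT4G21170 and AT2G19280, at 0.0853, 0.0863 and 0.0892. Among the 4 genes themselves AT4G09620 and AT5G55580 were closest, at 0.186, and AT3G46950 and AT4G09620 furthest apart, at 0.658.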

How the data were processed

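The authors deposited 1 linear intensity per probe and sample; background correction, scaling and spot averaging are not given in the sources used here. Zeros counted as missing. The log2 intensities were quantile normalised, and the 2915 of 3439 probes that had 4 or more nonzero values per group entered a fit with limma 3.58.1 in R 4.3.3 (lmFit, eBayes, two-sided, no block; Benjamini-Hochberg over all probes tested, threshold 0.05). Fold changes are sucrose medium over water. Figures used matplotlib 3.10.9 in Python 3.11.15. The fit was tested on simulated data.

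Groups and replicate numbers came from sample titles. Gene names followed the platform's annotation, possibly outdated, and were matched through gene identifiers to RefSeq TAIR10.1: 692 probes named 1 gene (690 matched a locus), 870 several, and 1877 were not listed. The members and lists were chosen with earlier results of these data known. Genes were named by rule: the 4 members, other family genes on tested single-gene probes, organelle transcription genes, and the 3 most similar genes per member.

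Same-numbered samples of the groups deviated together from their group means (Pearson correlations over 2805 probes of 0.280 to 0.450 in all 6 pairs). Between the groups, samples of the same set but another number did so less, at 0.162 to 0.282. Those of other sets ranged from -0.290 to 0.045. The shared deviation thus went with the set as well as with the number. The labels do not state a pairing by number. The main fit and its SE values are unpaired, and pairing entered only in the replicate block and in the counts of same-numbered pairs. With that block the SE was 0.088 in place of 0.19 for AT3G46950, and 0.079 in place of 0.080 for AT1G61990. With the sets of 2 averaged it was larger, at 0.25 for AT3G46950 and 0.13 for AT1G61990. For AT5G55580 it was then 0.14 in place of 0.094, and for AT4G09620 0.14 in place of 0.085. The fit with random set blocks estimated a correlation of 0.57 within sets. The main fit takes the 6 samples of a group as separate, so its SE values may be too small. Alternatives covered scaling, filter, pseudocount of 0.05, values of 100 as missing, replicate block, averaged or blocked sets of 2, and leaving out each sample.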

Additional observations from a re-analysis of the deposited data

Results flagged for a closer look

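The normalised log2 intensity of AT5G55580 in sucrose replicate 4, -0.010, stood apart from the other 5 sucrose samples, with a gap to the nearest of them of 0.642 of the group's range (Dixon's criterion for 6 samples). As deposited that sample, at 1.20, was also the highest, and without it the log2 fold change was -0.41 in place of -0.32. Among 32 groups and scales examined in the 8 family genes this was the only one past the criterion, which chance passes in about 1 of 20.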

How the results depend on the processing

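The count of probes past the threshold, 918 higher and 960 lower, moved most with scaling: without scaling it was 2154 and 226, and with the straight line, which left 2075 of the 2915 probes, 978 and 378, where quantile normalisation had 791 and 614 among those 2075 (a count added after seeing the data). Of the calls 48.9% were higher, against 90.5% without scaling, 40.0% with median centring and 72.1% with the straight line (56.3% with quantile normalisation among its probes). For the 4 genes the fold changes without scaling were 1.58 for AT3G46950, 1.39 for AT1G61990, 0.40 for AT5G55580 (reversed) and -0.041 for AT4G09620; with the straight line 1.48, 0.97, 0.29 (reversed) and -0.14; with median centring 0.32 for AT3G46950, -0.86 for AT5G55580 and -1.30 for AT4G09620; and with cyclic loess -0.15 for AT5G55580 and -0.43 for AT4G09620. Of the other family genes AT3G18870 turned to 0.047 without scaling and AT1G62150 to -0.43 with median centring. Of the 4 genes 2 were past the threshold as higher, but 0 with median centring or averaged sets and 1 with cyclic loess or random set blocks. Without scaling and with the straight line 3 were higher, because AT5G55580 was past the threshold as higher there (limma, adjusted p = 0.000323 and 0.0244). As lower there were 2, but 0 without scaling or with the straight line, and 1 with cyclic loess, averaged sets or random set blocks. Of the 8 family genes 4 were higher, but 1 with median centring or averaged sets, 2 with random set blocks and 6 without scaling or with the straight line. As lower there were 3 of the 8, but 0 without scaling and 1 with the straight line. At an unadjusted limma p under 0.05, 0 of the 4 were higher with median centring, and 0 were lower without scaling or with the straight line. The cause of these shifts was not tested. The replicate block (987 probes higher, 1037 lower) changed no call among the 8 genes except AT1G62150 (limma, adjusted p = 0.0181; 0.205 with averaged sets and 0.288 with random set blocks). Leaving out 1 sample at a time gave 864 to 903 probes higher and 912 to 965 lower, 2 of the 4 genes higher and 2 lower in all 12 fits, and 3 to 5 of the 8 higher and 3 lower. Fold changes then ranged from 0.57 to 0.83 for AT3G46950, 0.19 to 0.27 for AT1G61990, -0.41 to -0.30 for AT5G55580 and -0.67 to -0.60 for AT4G09620. The organelle transcription list had no tested gene, so its alternatives gave no value. No detection call is given, so signal over background is unknown.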
